A study of Homo sapiens with 9 samples.

Results

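The genes that drive a blood cell from G1 into S phase were examined in HNT34 cells, an established line from human acute myeloid leukemia (AML) that expresses EVI1 strongly, after EVI1 was lowered by shRNA. The group was chosen by name and holds 10 genes, namely the D-type cyclins CCND2 and CCND3, the kinases CDK4 and CDK6, the E-type cyclins CCNE1 and CCNE2, the inhibitors CDKN2C, CDKN2D and CDKN1B, and RB1. All 10 were found among the 16612 genes of the count table, and all 10 passed the filter on low counts, which left 16312 genes for testing. HNT34 cells received a non-targeting shRNA (NT) or a single EVI1-directed shRNA, sh#16 or sh#87, from a vector that also carries a red fluorescent protein and a puromycin resistance gene, and RNA was taken at 3 days past selection. There are 3 libraries for each group, all of them from the same cell line, and no library of cells without an shRNA was analysed here. The sh#87 libraries carry the number 18 in a field of their labels and 87 in their titles, and they were grouped by the titles. The labels do not say whether replicates are separate cultures, so p-values measure the spread between libraries, which may be technical.

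D-type cyclins bind CDK4 and CDK6, and these complexes phosphorylate the retinoblastoma protein encoded by RB1, which otherwise holds E2F transcription factors inactive. E2F factors then raise the E-type cyclins, which activate CDK2 and carry the cell into S phase. The INK4 proteins p18 (CDKN2C) and p19 (CDKN2D) block CDK4 and CDK6, and p27 (CDKN1B) blocks CDK2 complexes. CDK6 and CCND2 are the forms of kinase and D-type cyclin known for their high expression in early blood cells.

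The NT libraries differed among themselves far more than the knockdown libraries did. The biological coefficient of variation within a group was 25.0% for NT, but 3.77% for sh#16 and 6.96% for sh#87. Mitochondrially encoded genes took 15.9%, 11.5% and 4.69% of the counts in NT replicates 1, 2 and 3. They took from 2.69% to 2.88% with sh#16 and from 4.62% to 5.97% with sh#87, and the depth ranged over 17096170 to 43502389 counts. MECOM, which encodes EVI1, stood at 505 ± 65.4 CPM for NT, 144 ± 1.43 CPM for sh#16 and 107 ± 1.72 CPM for sh#87 (mean ± SD, n = 3), CPM being the counts scaled to library size with TMM factors. Summed blood and myeloid progenitor markers, of which 7 of 8 were in the table, ran from 1963 to 2135 CPM in NT, from 460 to 466 CPM in sh#16 and from 316 to 323 CPM in sh#87 libraries. Of the markers of other cell types, 2 of 3 T cell genes, 2 of 3 B cell genes, 1 of 3 fibroblast genes and 0 of 3 epithelial genes were in the table. The T cell genes summed to 7.27 to 10.1 CPM with NT, 5.49 to 6.46 CPM with sh#16 and 3.36 to 3.93 CPM with sh#87, and the B cell genes to 13.8 to 40.3, 4.24 to 4.44 and 1.42 to 1.92 CPM in the same order. The fibroblast gene COL1A1 was at no more than 0.172 CPM in NT and at between 25.9 and 30.3 CPM in the knockdown libraries. The part of these differences in the results below was not tested. In bulk RNA, a different share of cells in a phase of the cycle and a different level per cell cannot be told apart.

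At an adjusted p of at most 0.01 in edgeR's quasi-likelihood test, 8 of the 10 genes were called with sh#16 against NT, 5 higher and 3 lower, where 29.8% of all genes tested were called higher and 30.2% lower. With sh#87 against NT, 6 genes were called, 4 higher and 2 lower, where 34.3% of all genes were higher and 33.6% lower. CCNE1, CCNE2, CDKN2D and RB1 were higher and CCND2 and CDK6 lower in each of these comparisons, which share their NT libraries. CCND3 was called higher and CDKN1B lower with sh#16 and neither was called with sh#87. CDK4 and CDKN2C were called in neither. With both shRNAs as 1 group, 7 of the 10 genes were called, against 59.8% of all genes. In that comparison CCND3 lost its call without NT replicate 1 or 2, without any single sh#16 library and without sh#87 replicate 1, with adjusted p up to 0.0296. After removal of each library's trend on gene length and GC content, an alternative chosen after seeing the data, CCND3 was at 0.28 (adjusted p = 0.0988), down from 0.75. RB1 lost its call without NT replicate 2 or 3, with adjusted p up to 0.0181. A log2 fold change of at least 2 was reached by CDKN2D only, in each comparison, whereas 12.8% of all genes reached it with sh#16 and 18.9% with sh#87. The median log2 fold change of the 10 genes was 0.33 with sh#16 and 0.11 with sh#87, and over all genes tested it was 0.04 with each.

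**Figure D1:**
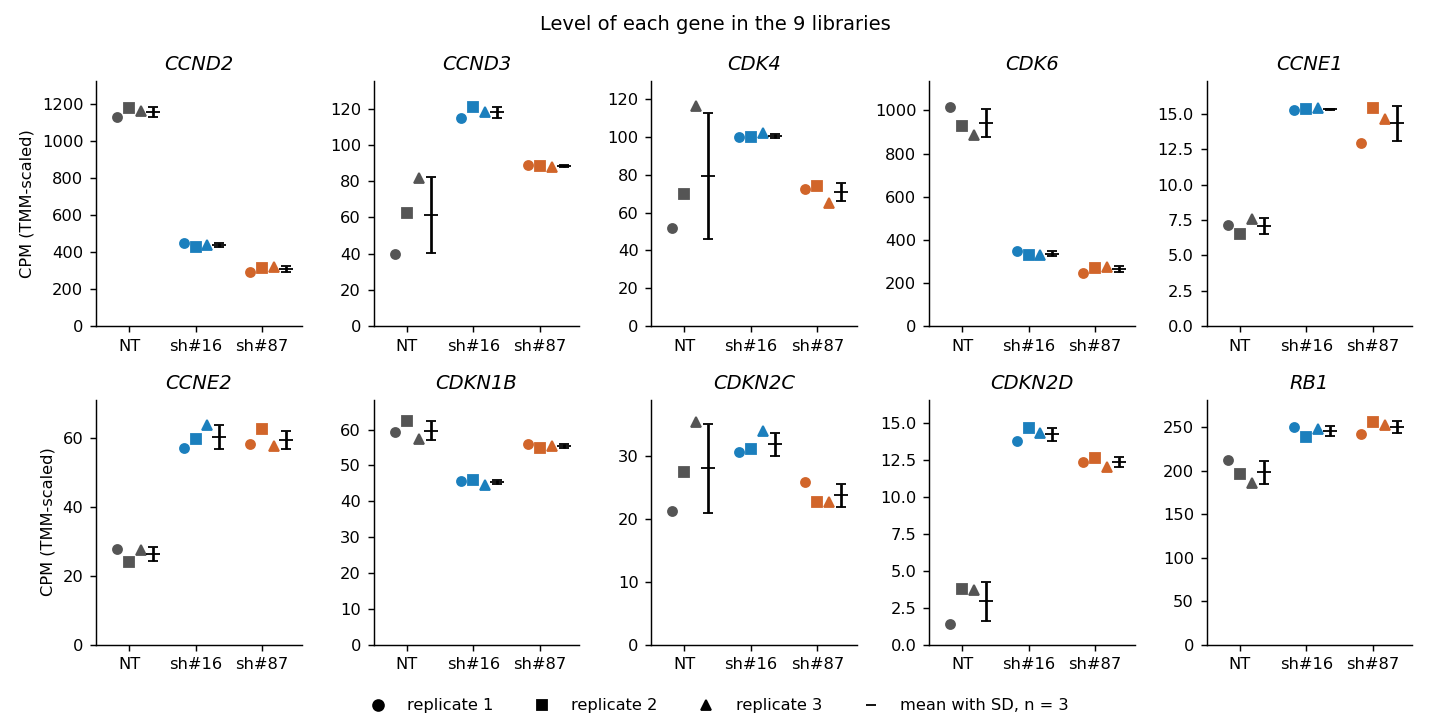
TMM-scaled CPM of the 10 genes (y axis, from 0) in the NT, sh#16 and sh#87 libraries (x axis), with a symbol per replicate and the mean with its SD (n = 3) beside each group. The NT points of CCND2 and CDK6 lie far above all knockdown points, those of CCNE1, CCNE2, CDKN2D and RB1 lie below them, and the NT points of CDK4 and CDKN2C span the knockdown levels.

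Promoter sequence was looked up for the 10 genes because E-type cyclins and several inhibitors are known E2F targets. RefSeq windows of 250 bases before a transcription start, on GRCh38.p14, were at hand for 8 of the genes, with 13 windows in all, and CCND2 and CCNE2 are named only. The 3 windows shown are those of CDKN2D, the gene with the highest fold change, of CCNE1, an E2F target in textbooks, and of CDK6, the gene with the lowest fold change with both shRNAs. They lie at chr19:10568980-10569229 (minus strand), chr19:29811741-29811990 (plus strand) and chr7:92836574-92836823 (minus strand, the first of its 2 windows). Capitals mark matches on either strand to the E2F motif TTTNNCGC and to the GC box GGGCGG, written 5′ to 3′ on the strand of the gene.
CDKN2D: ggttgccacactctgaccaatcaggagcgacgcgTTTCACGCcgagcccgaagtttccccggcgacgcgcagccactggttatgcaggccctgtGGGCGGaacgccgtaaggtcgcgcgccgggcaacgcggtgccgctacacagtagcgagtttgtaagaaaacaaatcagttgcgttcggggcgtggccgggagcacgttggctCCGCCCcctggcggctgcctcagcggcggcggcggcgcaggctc
CCNE1: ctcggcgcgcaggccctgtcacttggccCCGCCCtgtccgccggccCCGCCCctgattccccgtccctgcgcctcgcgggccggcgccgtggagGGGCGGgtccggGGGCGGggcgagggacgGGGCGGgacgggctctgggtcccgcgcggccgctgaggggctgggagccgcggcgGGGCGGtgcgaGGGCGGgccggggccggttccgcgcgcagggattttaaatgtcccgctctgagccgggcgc
CDK6: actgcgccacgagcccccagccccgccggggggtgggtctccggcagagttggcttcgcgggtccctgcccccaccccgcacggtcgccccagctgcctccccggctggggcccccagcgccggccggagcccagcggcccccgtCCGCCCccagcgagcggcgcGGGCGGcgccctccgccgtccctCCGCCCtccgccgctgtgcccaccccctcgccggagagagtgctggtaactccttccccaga
The E2F motif, with any base allowed at each N, stood once in the CDKN2D window, as TTTCACGC, 216 bases before the start. It stood in none of the other 12 windows of these genes, and 5.92% of the 35116 windows of this length in the table held it. The only RB1 window lies at chr13:48476200-48476449 and has 36.8% GC. Whether it lies before the main start of RB1 was not checked, so its lack of a match does not speak for the main promoter. A stricter form of the motif, with only C or G at each N, was not searched for. TTTCACGC would not match that form, since it has an A at an N. GC boxes numbered 2 in the CDKN2D window, 7 in that of CCNE1 and 3 in that of CDK6, and 42.6% of all windows held at least 1. CACGTG, the E-box read by MYC and MAX, stood 3 times in the CDK4 window and once in each of 2 CDKN2C windows, against 6.34% of all windows. AGATAA, a core of GATA and EVI1 motifs, stood in 0 of the 13 windows, against 9.17% of all windows. A match is a description of the letters, and the E2F and GC box matches in the 3 windows shown do not overlap.

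CCND2, the main D-type cyclin of these cells by its level, fell with each shRNA. It was at 1130, 1181 and 1162 CPM in NT replicates 1 to 3, at 451, 429 and 439 CPM in sh#16 and at 291, 315 and 319 CPM in sh#87 libraries. The 6 knockdown libraries all lay below the NT libraries, and the sh#87 libraries all lay below the sh#16 libraries. Its log2 fold change was -1.40 with sh#16 (standard error 0.065, adjusted p = 2.18e-07, edgeR's quasi-likelihood test) and -1.91 with sh#87 (standard error 0.066, adjusted p = 2.81e-08), which left 38.0% and 26.6% of the NT level. CCND2 varied less among the NT libraries than the other 9 genes, with a coefficient of variation of 2.22%. The annotation places CCND2-AS1 on the opposite strand and an unnamed transcript on the same strand across it, and the latter's reads could be split with those of CCND2.

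CCND3, the D-type cyclin typical of lymphoid cells and of later blood cell stages, went the other way. Its levels were 40.0, 62.7 and 81.8 CPM in NT replicates 1 to 3, 115, 121 and 118 CPM in sh#16 and 89.0, 88.1 and 87.8 CPM in sh#87 libraries. All knockdown libraries lay above the NT libraries, although NT replicate 3 came close to the sh#87 libraries. Against NT, the log2 fold change was 0.94 with sh#16 (standard error 0.20, adjusted p = 0.00259, edgeR's quasi-likelihood test) and 0.52 with sh#87 (standard error 0.20, adjusted p = 0.0402), which missed the threshold. The size of this difference rested on the NT libraries and on the processing. With sh#87 it was 0.28 without NT replicate 1 (adjusted p = 0.0259), 0.77 without NT replicate 3 (adjusted p = 6.33e-04) and 0.04 after the length and GC correction (adjusted p = 0.649). With sh#16 it was 0.95 without NT replicate 2 (adjusted p = 0.0106), which ended the call, and 0.48 after that correction (adjusted p = 3.59e-04). In a fit of the NT and sh#16 libraries alone it was 0.96 (adjusted p = 0.0107), which also ended the call. NT replicate 1, with the lowest CCND3, had the highest share of mitochondrial counts, and whether the one bears on the other was not tested.

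CDK6, the kinase partner of D-type cyclins that prevails in blood progenitors, fell to a like extent as CCND2. It was at 1014, 930 and 885 CPM in NT, at 349, 328 and 329 CPM in sh#16 and at 247, 271 and 276 CPM in sh#87 libraries. The NT libraries stood far above the knockdown libraries, and no groups overlapped. In the fit, its log2 fold change was -1.49 with sh#16 (standard error 0.078, adjusted p = 4.06e-07, edgeR's quasi-likelihood test) and -1.83 with sh#87 (standard error 0.078, adjusted p = 8.34e-08), so that 35.6% and 28.1% of the NT level remained. Among the 9812 genes with a mean of at least 10 CPM, those most like CDK6 over the 9 libraries by Pearson's r of log2 CPM were MME, FOXN3, NUDT3, KCNQ5 and DOCK8, each with r = 0.999. These libraries form 3 groups, so such an r mostly describes the differences between groups. MME, a cell surface peptidase of lymphoid progenitors, had log2 fold changes of -1.86 with sh#16 and -2.26 with sh#87.

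CDK4, the sister kinase of CDK6, was not called in any comparison. It was at 51.9, 69.8 and 117 CPM in NT, at 99.9, 100.2 and 102 CPM in sh#16 and at 72.5, 74.3 and 65.3 CPM in sh#87 libraries. Both knockdown groups lay within the range of the NT libraries. On the log2 scale the change was 0.34 with sh#16 (standard error 0.24, adjusted p = 0.223, edgeR's quasi-likelihood test) and -0.17 with sh#87 (standard error 0.24, adjusted p = 0.531). The sign and the call turned on the NT libraries. Without NT replicate 3 the sh#16 value was 0.70 (adjusted p = 2.06e-04), and against NT replicate 3 alone, given with no test because a single control shows no spread, the values were -0.21 with sh#16 and -0.71 with sh#87. TSPAN31 overlaps CDK4 on the opposite strand, and the library kit keeps the strand.

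**Figure D2:**
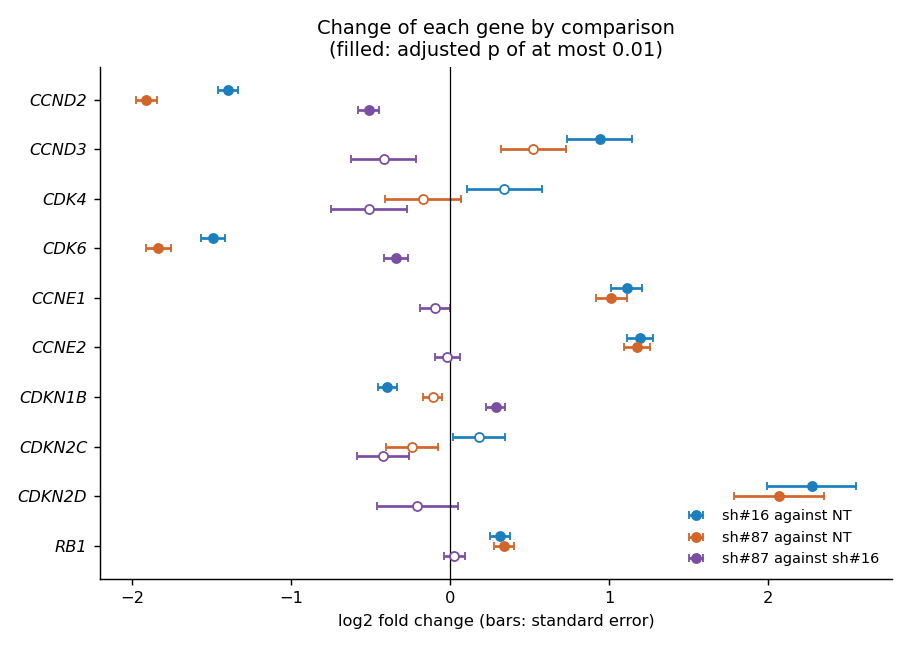
Log2 fold change (x axis) of each gene (y axis) with its standard error in sh#16 against NT, sh#87 against NT and sh#87 against sh#16, with filled points for an adjusted p of at most 0.01. CCND2 and CDK6 lie between -1.91 and -1.40 against NT, CDKN2D lies above 2, and CDK4 and CDKN2C have open points in all 3 comparisons.

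The E-type cyclins rose together. CCNE1, an activator of CDK2, was at 7.18, 6.50 and 7.61 CPM in NT, at 15.3, 15.3 and 15.4 CPM in sh#16 and at 13.0, 15.4 and 14.6 CPM in sh#87 libraries. CCNE2, which binds the same kinase, was at 27.6, 24.1 and 27.5 CPM in NT, at 57.1, 59.7 and 63.8 CPM in sh#16 and at 58.2, 62.5 and 57.7 CPM in sh#87 libraries. For both genes every knockdown library lay above every NT library, and the knockdown groups overlapped each other. The log2 fold change of CCNE1 was 1.11 with sh#16 (standard error 0.097, adjusted p = 9.14e-06, edgeR's quasi-likelihood test) and 1.01 with sh#87 (standard error 0.097, adjusted p = 1.16e-05). That of CCNE2 was 1.19 with sh#16 (standard error 0.081, adjusted p = 1.92e-06) and 1.17 with sh#87 (standard error 0.081, adjusted p = 1.36e-06). NT replicate 3, whose mitochondrial share of 4.69% lay at the level of the sh#87 libraries, held 7.61 CPM of CCNE1 and 27.5 CPM of CCNE2, close to the other NT libraries. INTS8 overlaps CCNE2 on the opposite strand.

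CDKN2D, which encodes the INK4 inhibitor p19, had the largest fold change of the 10 genes. It was at 1.38, 3.73 and 3.67 CPM in NT, at 13.8, 14.6 and 14.4 CPM in sh#16 and at 12.4, 12.6 and 12.0 CPM in sh#87 libraries. These levels rest on 32 to 110 counts per NT library and 236 to 677 per knockdown library, and no NT library reached a knockdown level. Its log2 fold change was 2.27 with sh#16 (standard error 0.28, adjusted p = 7.94e-05, edgeR's quasi-likelihood test) and 2.07 with sh#87 (standard error 0.28, adjusted p = 1.15e-04), or 4.83-fold and 4.19-fold. Without NT replicate 1, the lowest NT library, the values were 1.93 and 1.73, and after the length and GC correction 1.75 and 1.55, below the fold change threshold of 2 and still past an adjusted p of 0.01. By the same measure as for CDK6, the genes most like CDKN2D were BAK1, a pore-forming BCL2 family member, with r = 0.995, BSG and GNA12 with r = 0.993, DCTN3 with r = 0.993 and SMPD1 with r = 0.992.

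CDKN2C, which encodes the INK4 inhibitor p18, was not called. It was at 21.3, 27.6 and 35.5 CPM in NT, at 30.7, 31.1 and 34.0 CPM in sh#16 and at 25.9, 22.7 and 22.8 CPM in sh#87 libraries, so that both knockdown groups lay within the NT range. Against NT, the log2 fold change was 0.18 with sh#16 (standard error 0.16, adjusted p = 0.336, edgeR's quasi-likelihood test) and -0.24 with sh#87 (standard error 0.16, adjusted p = 0.201). Without NT replicate 1 the sh#87 value was -0.41 (adjusted p = 0.00880), and against NT replicate 3 alone it was -0.56, with no test.

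CDKN1B, which encodes p27, the inhibitor of cyclin E and CDK2 complexes, fell slightly with sh#16. It was at 59.3, 62.4 and 57.4 CPM in NT, at 45.7, 45.8 and 44.6 CPM in sh#16 and at 55.8, 54.9 and 55.4 CPM in sh#87 libraries. The groups did not overlap, with the sh#87 libraries between the others. In the fit, its log2 fold change was -0.40 with sh#16 (standard error 0.059, adjusted p = 2.72e-04, edgeR's quasi-likelihood test) and -0.11 with sh#87 (standard error 0.059, adjusted p = 0.118), and the sh#87 value was above 0 with upper-quartile normalization (0.00976) and after removal of a length and GC trend (0.11).

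RB1, the target of the D-type cyclin kinases, rose with each shRNA. It was at 212, 196 and 186 CPM in NT, at 250, 239 and 248 CPM in sh#16 and at 242, 255 and 253 CPM in sh#87 libraries. All knockdown libraries lay above the NT libraries. On the log2 scale the change was 0.31 with sh#16 (standard error 0.064, adjusted p = 0.00193, edgeR's quasi-likelihood test) and 0.34 with sh#87 (standard error 0.064, adjusted p = 9.99e-04). After the length and GC correction these values were 0.65 and 0.81.

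The shRNAs themselves were also set against each other, in the fit of all 9 libraries. Of the 10 genes, 1 was called higher and 2 lower with sh#87 than with sh#16, where 8.29% of all genes were higher and 9.42% lower. CCND2 was lower by a log2 difference of -0.51 (standard error 0.064, adjusted p = 6.54e-04, edgeR's quasi-likelihood test) and CDK6 by -0.34 (standard error 0.076, adjusted p = 0.00903), and CDKN1B was higher by 0.29 (standard error 0.059, adjusted p = 0.00655). MECOM itself was also lower with sh#87, by -0.43. The calls of CDK6 and CDKN1B were lost when NT replicate 2 or any single knockdown library was left out, with adjusted p up to 0.0432 and 0.0349, and the call of CCND2 held in all 9 such fits. For CCND3, CDK4 and CDKN2C the sh#87 libraries all lay below the sh#16 libraries, with log2 differences of -0.42, -0.51 and -0.42 that missed the threshold (adjusted p of 0.142, 0.131 and 0.0750). Their fitted spread includes the NT libraries, and in a fit of the knockdown libraries alone all 3 passed it, where 48.0% of all genes tested did so. CCND3 also passed without NT replicate 1, and CDK4 and CDKN2C without NT replicate 3, where 28.1% and 32.4% of all genes passed. For the E-type cyclins the 95% confidence interval of the difference ran from -0.28 to 0.09 for CCNE1 and from -0.17 to 0.14 for CCNE2.

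Levels of different genes were compared as CPM per kilobase of the canonical transcript. In NT libraries CCND2 stood highest at 178 ± 3.96 (SD, n = 3), followed by CDK6 at 80.9 ± 5.59 (SD, n = 3). CDK4, RB1, CCND3, CDKN2C and CDKN1B followed between 42.6 and 24.8, each overlapping its neighbour in this order, and CCNE2 at 9.86, CCNE1 at 3.63 and CDKN2D at 2.05 came last without overlap. In sh#16 libraries no neighbours overlapped, and CCND2 at 67.8, CCND3 at 58.3, CDK4 at 54.0 and RB1 at 51.5 led, with CDK6 at 28.8 in the sixth place. In sh#87 libraries RB1 at 52.5 led, ahead of CCND2 at 47.5, CCND3 at 43.6 and CDK4 at 37.9, and CDKN2C, CDKN1B, CDK6 and CCNE2 lay between 23.9 and 22.2 with overlap between each and the next. The order depends on the length used, and most of all for CDK6 with its long transcript model. Per kilobase of coding sequence CCND2 stood highest and CDK6 next in all 3 groups, without overlap. They were at 1335 and 964 in NT, 507 and 343 in sh#16 and 356 and 271 in sh#87 libraries. RB1 stood in the fifth place by its mean in each group, but in NT it overlapped both of its neighbours, CDK4 and CCND3. CCNE1 was the lowest of the 10 genes in both knockdown groups by either length, while in NT it overlapped CDKN2D per coding length.

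The ratio of partner genes within a library does not depend on the scaling between libraries. Per transcript length, CCND2 stood 8.82, 5.88 and 4.43 times as high as CCND3 in the NT libraries, 1.11 to 1.22 times with sh#16 and 1.02 to 1.13 times with sh#87. CDK6 stood 3.12, 2.13 and 1.22 times as high as CDK4 in the NT libraries, 0.517 to 0.559 times with sh#16 and 0.544 to 0.676 times with sh#87. CDKN2C was 10.6 to 22.2 times as high as CDKN2D with NT, 3.05 to 3.39 times with sh#16 and 2.57 to 2.99 times with sh#87. NT and knockdown libraries did not overlap in these 3 ratios, while the ratio of CCNE1 to CCNE2 overlapped, with means of 0.369, 0.349 and 0.330 in NT, sh#16 and sh#87. The size of these ratios depends on the length used. Per coding length the mean ratio of CCND2 to CCND3 was 20.7 for NT, 3.77 for sh#16 and 3.53 for sh#87, so CCND2 stood well above CCND3 in all groups by that measure. The side of 1 on which the CDK6 ratio falls also changes, since the CDK6 transcript model of 11663 bases is long against 1865 bases for CDK4. Its mean per coding length was 12.5 for NT, 3.10 for sh#16 and 3.49 for sh#87. The sum of CCND2 and CCND3 per kilobase of transcript averaged 209 ± 13.2 for NT, 126 ± 0.147 for sh#16 and 91.1 ± 2.02 for sh#87 (SD, n = 3), and that of CDK4 and CDK6 123 ± 13.0, 82.8 ± 0.819 and 60.6 ± 2.27 in the same order.

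**Figure D3:**
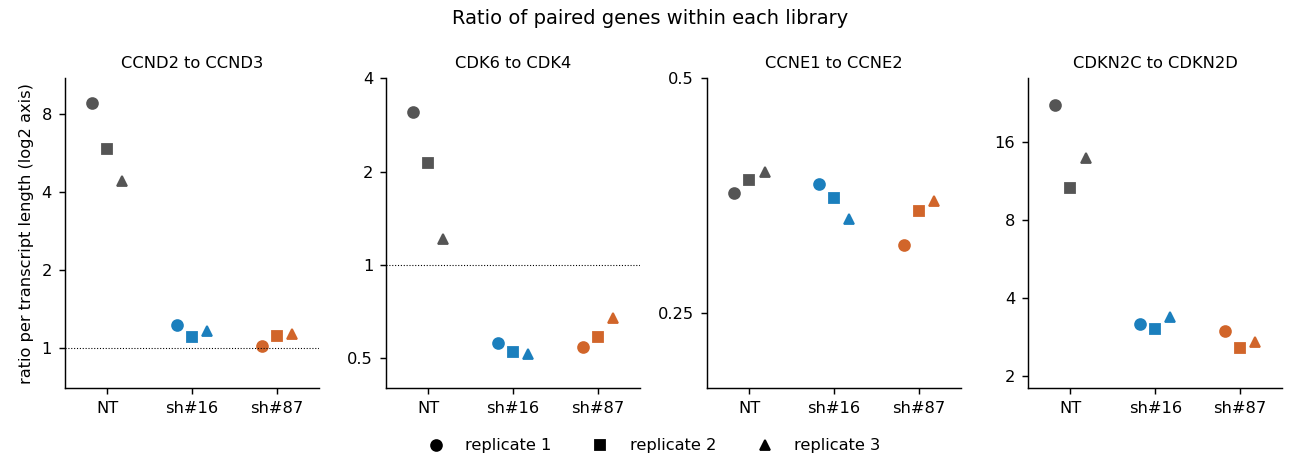
Ratio of CPM per transcript length (y axis, log2 scale, a different range in each panel) of 4 pairs of genes in the NT, sh#16 and sh#87 libraries (x axis), with a symbol per replicate and a dotted line at 1 where it is in range. The NT points lie above all knockdown points for CCND2 to CCND3, CDK6 to CDK4 and CDKN2C to CDKN2D, while for CCNE1 to CCNE2 NT replicate 1 lies among them and the other NT points lie above them.

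**Figure D4:**
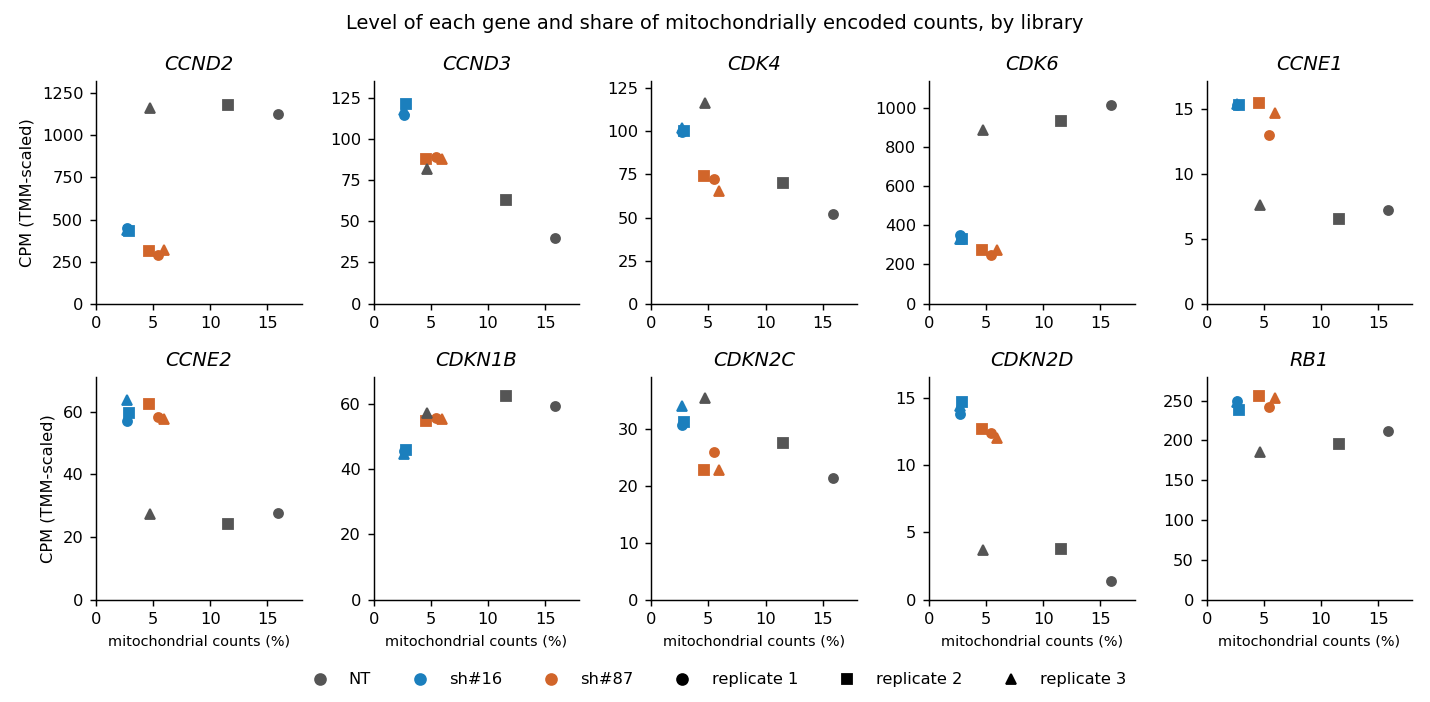
TMM-scaled CPM of each gene (y axis, from 0) against the percent of counts from mitochondrially encoded genes (x axis), with a point per library, colored by group and shaped by replicate. NT replicate 3, at 4.69%, keeps the NT level for CCND2, CDK6, CCNE1, CCNE2 and RB1, and differs by 1.67 to 2.67 times from NT replicate 1 for CCND3, CDK4, CDKN2C and CDKN2D.

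The spread among NT libraries was uneven over the 10 genes. The coefficient of variation in NT was 45.9% for CDKN2D, 42.0% for CDK4, 34.0% for CCND3 and 25.3% for CDKN2C, and between 2.22% and 7.84% for the other 6. NT replicate 3 held 2.67 times the CDKN2D, 2.24 times the CDK4, 2.04 times the CCND3 and 1.67 times the CDKN2C of NT replicate 1, beside mitochondrial shares of 4.69% and 15.9%. Against NT replicate 3 alone, with no test, the log2 fold changes with sh#16 and sh#87 were -1.40 and -1.90 for CCND2, -1.40 and -1.73 for CDK6, 1.01 and 0.93 for CCNE1, 1.13 and 1.13 for CCNE2, 1.96 and 1.76 for CDKN2D and 0.40 and 0.44 for RB1. CCND3 was at 0.53 and 0.13.

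The wider G1 and S phase machinery was read from 8 lists with 68 genes, of which 66 were in the table and tested. With sh#16, 21 were called higher and 24 lower against NT, and with sh#87, 19 higher and 31 lower, beside the shares of 29.8% and 30.2%, and 34.3% and 33.6%, among all genes. The median log2 fold change of the lists was -0.05 with sh#16 and -0.28 with sh#87. Between the shRNAs, 1 gene was called higher with sh#87, the replication factor CDC45, and 18 were called lower, where 8.29% of all genes were higher and 9.42% lower. The median difference was -0.21 against -0.02 over all genes. Counts for single lists, given below, have the same shares of all genes beside them, against NT and between the shRNAs.

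CDK2, the kinase of cyclins E and A, rose beside the E-type cyclins, with a log2 fold change of 0.95 with sh#16 and 1.22 with sh#87. Its NT libraries were uneven, at 50.3, 62.5 and 76.7 CPM in replicates 1 to 3, so the size of its rise depends on them. CCNA2, the S phase cyclin, fell by 0.43 and 0.95 on the log2 scale. CCND1, the D-type cyclin that blood cells use least, held between 36 and 40 counts per NT library and between 0 and 3 per knockdown library. Of the other CDK inhibitors, CDKN1A, which encodes p21 and is a p53 target, rose from 42.4 CPM in NT to 205 CPM with sh#16 and 224 CPM with sh#87, by 2.27 on the log2 scale (standard error 0.28, adjusted p = 7.47e-05, edgeR's quasi-likelihood test) and 2.39 (standard error 0.28, adjusted p = 4.00e-05). The NT libraries were uneven in CDKN1A, at 24.9, 38.1 and 64.2 CPM in replicates 1 to 3, so the size of its rise depends on them. All of them lay below the knockdown libraries, of which the lowest was at 200 CPM. CDKN2A, the source of p16 and p14ARF, fell by 1.39 and 2.12 from 2.65 CPM in NT. CDKN1C, which encodes p57, was called higher with sh#87 only, at 13 or fewer counts per NT library, and a difference between the shRNAs was not called (adjusted p = 0.462).

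Among the 12 genes of the RB family and the E2F factors, 3 were higher and 5 lower with sh#16 and 4 higher and 6 lower with sh#87. The activating factor E2F2 rose by 0.92 and 1.12, and E2F1 had log2 fold changes of 0.94 with sh#16, not called (adjusted p = 0.0197, edgeR's quasi-likelihood test), and 1.25 with sh#87. In NT replicates 1 to 3, E2F1 was uneven at 12.3, 22.1 and 36.8 CPM and E2F2 at 25.2, 35.5 and 46.5 CPM. All these NT levels lay below the knockdown libraries, and the size of the changes depends on them. E2F4 and E2F7, which act mainly as repressors, rose by 0.76 and 1.34 and by 0.75 and 0.66, whereas the repressor E2F5 fell by 1.21 and 1.57. The RB relatives RBL1 and RBL2 fell, by 0.37 and 0.58 and by 0.40 and 0.25, while RB1 rose. TFDP2, a dimer partner of E2F factors, fell by 1.05 and 1.33.

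Of the 8 genes for the turnover of p27 and cyclin E and the activation of CDK2, 4 were higher and 3 lower with each shRNA. SKP2, which targets p27 for destruction, rose by 0.76 and 0.60, and its cofactor CKS1B fell by 0.46 and 1.22. The scaffold CUL1 of the same ligase fell by 1.91 and 2.38, and FBXO4, an F-box protein reported to act on cyclin D1, fell by 2.40 and 2.53. FBXW7, which marks cyclin E for destruction, had a log2 fold change of 0.41 with sh#16, not called (adjusted p = 0.0248, edgeR's quasi-likelihood test), and rose by 0.81 with sh#87.

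The upstream factors held 1 gene called higher and 4 lower of 7 with each shRNA. MYC, an inducer of CCND2 and CDK4, was at 370, 260 and 101 CPM in NT, sh#16 and sh#87, a log2 fold change of -0.51 and -1.87, and the difference between the shRNAs was -1.36 (standard error 0.13, adjusted p = 2.35e-04, edgeR's quasi-likelihood test). The NT libraries were uneven in MYC, at 299, 366 and 444 CPM in replicates 1 to 3, beside 256 to 267 CPM in sh#16 libraries. FOXO4, of a family that induces CDKN1B, rose by 0.36 and 0.47, and FOXO1 and FOXO3 were not called.

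E2F targets of S phase entry split in direction, with 4 higher and 4 lower of 16 with sh#16 and 4 higher and 9 lower with sh#87. TK1, the thymidine kinase, rose by 2.25 and 2.37, RRM2, a ribonucleotide reductase subunit, by 1.39 and 1.46, and the licensing factor CDC6 by 0.82 and 0.94. The helicase subunits MCM5 and MCM6 fell by 0.74 and 0.73 and by 0.68 and 1.07, and thymidylate synthase TYMS fell by 0.86 and 1.65. Of 12 genes of G2 and mitosis, 6 were higher and 3 lower with sh#16, and 3 higher and 5 lower with sh#87. Between the shRNAs, 6 of them were lower with sh#87 and 0 higher, where 9.42% of all genes were lower and 8.29% higher. Among the 6 were CCNB1, by a log2 difference of -0.74, and CDK1, by -0.71.

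**Figure D5:**
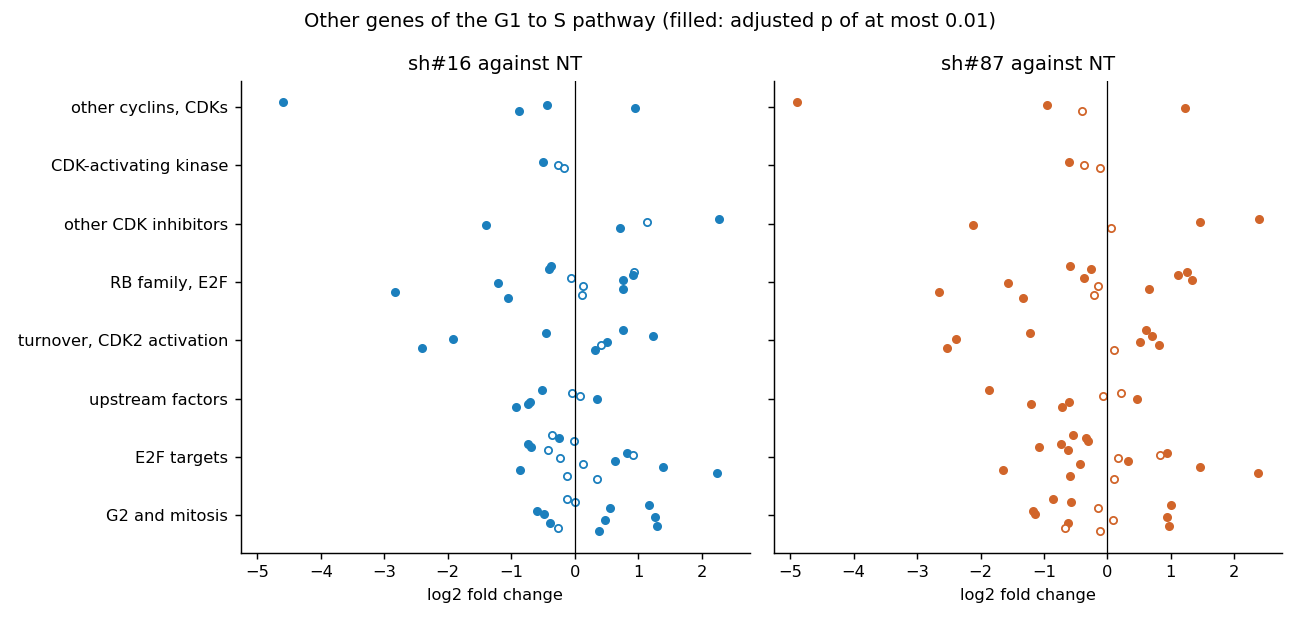
Log2 fold change (x axis) of the genes of 8 pathway lists (y axis) with sh#16 against NT and sh#87 against NT, with a point per gene, filled where the adjusted p was at most 0.01. Each list has genes on both sides of 0 except the CDK-activating kinase, whose 3 genes lie below 0, and the point farthest to the left is CCND1, whose fold change rests on 0 to 3 counts per knockdown library and depends on the prior count.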

How the data were processed

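A table of estimated counts by gene symbol, without normalization, was deposited by the authors for the 9 HNT34 libraries, which a stranded polyA kit had produced. The header names a salmon output per library, whereas the methods name STAR gene counts on GRCh38 with ENSEMBL annotation after FastQC 1.3. Header names were shifted left by 1 column, which was corrected, and all values were whole. Per-sample columns left unused numbered 0.

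The genes, lists and tests were chosen with earlier results of these data known. Counts were analysed in R 4.3.3 with edgeR 4.0.16 (TMM, filterByExpr, quasi-likelihood test with Benjamini-Hochberg adjustment over all 16312 genes tested), in 1 fit of 3 groups for single shRNAs and a fit of 2 groups for both. As alternatives, DESeq2 1.42.0, the tool of the methods, and voom from limma 3.58.1 were run. The steps were tested on simulated data with the same spread in all libraries, so not under the uneven spread of these groups. Genes named are the 10 listed genes, MECOM, genes of the pathway lists, and the 5 genes most correlated over libraries with the genes of highest and lowest fold change.

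Lengths came from a canonical transcript of the GRCh37 annotation. CPM per kilobase was used in place of a planned TPM, whose sum moves with the mitochondrial share. Promoters came from RefSeq (GRCh38.p14). Python 3.11.15 and matplotlib 3.10.9 were used for figures. The precision of each level is limited by the depth and by 3 libraries per group.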

Additional observations from a re-analysis of the deposited data

Results flagged for a closer look

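CCNE1 held a library far from the others among the 6 knockdown libraries. The gap of sh#87 replicate 1, at 13.0 CPM, to its nearest neighbour was 0.682 of the range, which is past the limit of Dixon's test at 95% for 6 values, in 1 of 10 genes checked. Chance gives such a gap in about 1 of 20 groups.

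The change against NT differed between the shRNAs, in a test of the difference itself, for CCND2 (log2 difference of sh#87 to sh#16 of -0.51), CDK6 (-0.34) and CDKN1B (0.29). CCND2 and CDK6 were further below NT with sh#87, and CDKN1B was further below NT with sh#16. The call of CCND2 held when any library was left out and with the replicate number as a block. Those of CDK6 and CDKN1B were lost with the block (adjusted p = 0.0301 and 0.0234, edgeR's quasi-likelihood test) and without NT replicate 2 or any single knockdown library, and that of CDK6 also with RLE and upper-quartile normalization.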

How the results depend on the processing

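With RLE or upper-quartile normalization, no filter, DESeq2, limma-voom or mitochondrial genes removed, the number of genes called against NT stayed within 1.5 times of 7 with both shRNAs, 8 with sh#16 and 6 with sh#87. Upper-quartile normalization shifted the median over all genes by 0.11 (log2) for both shRNAs together and the removal of a length and GC trend, chosen after seeing the data, by -0.10.

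A log2 fold change of at least 1 left 5 genes with sh#16 and 0 between the shRNAs, where it left 34.0% and 4.3% of all genes. One of at least 2 left 1 in each comparison with NT and 0 between the shRNAs, where it left 12.8% to 18.9% and 0.5% of all genes. Between the shRNAs, 6 genes were called with a weight per group in limma-voom and 6 in a fit of the knockdown libraries alone, where 45.3% and 48.0% of all genes were called. Leaving out 1 library at a time gave a range of 5 to 7 genes for both shRNAs, 7 to 9 for sh#16, 6 to 7 for sh#87 and 1 to 5 between the shRNAs. The shares of all genes called in these fits ran from 47.9% to 59.1%, 49.7% to 68.2%, 59.5% to 73.9% and 6.7% to 32.4% in the same order. The last count was 1 without NT replicate 2 or any knockdown library, where 6.7% to 13.3% of all genes were called. It was 5 without NT replicate 3, where 32.4% were called. CDK6 also lost its call between the shRNAs with RLE and with upper-quartile normalization.

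Libraries that share a replicate number were not treated as pairs in the main fits. The correlations of their deviations ran from -0.14 to 0.083 in 9 pairs. With NT so uneven, such values cannot tell whether these libraries were made in parallel. With the replicate number as a block, 1 gene, CCND2, was called between the shRNAs, where 9.7% of all genes were called. Against NT, 5, 8 and 6 were called with both shRNAs, sh#16 and sh#87, where 53.1%, 55.8% and 64.0% of all genes were called. CCND3 (adjusted p = 0.0108) and RB1 (adjusted p = 0.0131, edgeR's quasi-likelihood test) lost their calls with both shRNAs.

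Signs turned for values near 0 that were not called. CDKN2C with both shRNAs was 0.10 with upper-quartile normalization and with a weight per group, 0.00746 with the block, 0.056 after the length and GC correction, and between -0.19 and 0.17 with a library left out (0.012, 0.044 and 0.043 without sh#87 replicates 1, 2 and 3, and 0.17 without NT replicate 3). CDKN2C with sh#16 was between -0.0023 (without NT replicate 1) and 0.36 (without NT replicate 3) with a library left out, and -0.16 with NT replicate 3 as the only control. CDK4 with both shRNAs was between -0.13 (without NT replicate 1) and 0.47 (without NT replicate 3) and was -0.44 with NT replicate 3 alone, with sh#16 it was -0.21 with NT replicate 3 alone, and with sh#87 it was between -0.41 (without NT replicate 1) and 0.20 (without NT replicate 3). CDKN1B with sh#87 was 0.00976 with upper-quartile normalization and 0.11 after the length and GC correction. CCNE2 between the shRNAs was 0.025 without sh#16 replicate 3, 0.00375 without sh#87 replicate 3, -0.056 without sh#87 replicate 2 and 0.19 after that correction. Values against NT replicate 3 alone carry no test, since its spread would be taken from the less variable knockdown libraries. The cause was not tested.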
